A study of Homo sapiens with 6 samples.

Results

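The markers of epithelial-mesenchymal transition (EMT) were examined in HCCLM3, a human hepatocellular carcinoma (HCC) cell line, with and without overexpression of *PON1*. They were 10 genes, taken by symbol from a count table of 20381 genes: *CDH1*, *EPCAM*, *CDH2*, *VIM*, *FN1*, *SNAI1*, *SNAI2*, *ZEB1*, *ZEB2* and *TWIST1*. PON1-OE cells carried the *PON1* coding sequence from a lentivirus, and NC cells were the negative control, an empty vector lentivirus in the series' design text. Both lines were infected and puromycin-selected according to the methods of the study, with no word of single clones, and 3 poly(A) RNA libraries were made from each. The design text differs from these methods in giving 15% serum, a higher content, and lysis at 24 h after transfection. No source used here says whether the 3 libraries of a group came from separate cultures, so that the spread between them may be technical. In the study, the same pair of lines was also used in Transwell assays, and it reports lower migration and invasion with *PON1* overexpression. These assays were not analysed here, so the question put to the count table was whether mRNA of the EMT markers differed between the lines.

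EMT is the program by which epithelial cells loosen their junctions, lose apical-basal polarity and take on the shape and motility of mesenchymal cells. E-cadherin (*CDH1*) and EpCAM (*EPCAM*) hold epithelial cells together, while N-cadherin (*CDH2*), the intermediate filament protein vimentin (*VIM*) and the matrix protein fibronectin (*FN1*) are the usual mesenchymal readouts. *SNAI1*, *SNAI2*, *ZEB1*, *ZEB2* and *TWIST1* encode transcription factors that act on this program, and the SNAI and ZEB proteins bind E-boxes in the *CDH1* promoter and repress it. Hepatocytes are epithelial cells that make N-cadherin as well as E-cadherin, so *CDH2* alone does not mark a mesenchymal state in the liver.

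*ZEB1* and *ZEB2* are held in check in epithelial cells by the microRNAs of the miR-200 family, which bind their 3′ untranslated regions. The family is shown here because its seed sequences define the sites counted in these mRNAs. The mature sequences, from RefSeq on GRCh38.p14, are written 5′ to 3′ with the seed (bases 2 to 8) in capitals, and they fall into a group of 3 and a group of 2 by seed.
hsa-miR-200b-3p: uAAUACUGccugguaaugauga
hsa-miR-200c-3p: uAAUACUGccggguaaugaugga
hsa-miR-429: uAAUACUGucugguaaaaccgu
hsa-miR-200a-3p: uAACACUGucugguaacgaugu
hsa-miR-141-3p: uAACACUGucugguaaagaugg
The letters that pair with these seeds are CAGTATT and CAGTGTT, searched on the mRNA strand only. In the 3′ untranslated regions of the principal transcripts in GENCODE v29, *ZEB1* held 5 CAGTATT and 3 CAGTGTT in 1938 bases, and *ZEB2* held 5 and 4 in 5370 bases. The match nearest to the stop codon for each is printed with the matching letters in capitals, and the coordinates are on GRCh38.
ZEB1, chr10:31527625-31527647, plus strand: tatcttatCAGTATTatcactct
ZEB1, chr10:31528038-31528060, plus strand: atcagaatCAGTGTTtgtgattg
ZEB2, chr2:144389045-144389067, minus strand: ccatacatCAGTATTtttattat
ZEB2, chr2:144389229-144389251, minus strand: attttgtaCAGTGTTaaggccta
Of 19561 genes searched, 14.3% held CAGTATT and 16.1% held CAGTGTT at least once. Among the 2226 genes whose 3′ untranslated region was within 20% of the length of that of *ZEB1*, 445 held CAGTATT, and *ZEB1* itself was the 1 gene with 5 or more. Among the 906 genes of a length like that of *ZEB2*, 414 did, and *ZEB2* was again the 1 gene with as many. A match to CAGTGTT was held by 502 of the 2226 and 475 of the 906 genes, and 6 and 13 of them, the ZEB gene included, had at least as many as *ZEB1* and *ZEB2*. These matches describe the letters only, since mature microRNAs are not captured in poly(A) libraries and were not measured.

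The library totals ranged from 15706686 to 17948391 counts. *PON1* itself had 0, 2 and 3 counts in NC replicates 1 to 3 and 155, 181 and 167 counts in PON1-OE replicates 1 to 3, in accordance with the labels (log2FC 6.65, SE 0.32, adjusted p = 3.00e-11 by the quasi-likelihood test of edgeR). Of the 12 hepatocyte markers, the transcription factor gene *HNF4A* (1223 to 1492 counts) was well covered. The genes of secretory products *ALB* (4 to 13 counts), *APOA1* (0 to 5), *TTR* (0 to 2) and *SERPINA1* (0 or 1) were near 0. Of the 12 markers, 7 passed the filter on low counts. The list summed to 147 to 151 CPM in NC and to 144 to 149 CPM in PON1-OE. Of 8 leukocyte markers, 5 had no count in any library, among them *PTPRC*, *CD3E*, *MS4A1* and *LYZ*. Of 8 endothelial markers, 2 had none (*CLEC14A* and *EMCN*). The filter was passed by 2 of 8 leukocyte and 3 of 8 endothelial markers, among them *CD68* and *ESAM*.

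The count table showed a mixed set of EMT markers in HCCLM3. *FN1* mRNA was the most abundant member, *CDH2* was the next, *CDH1* and *VIM* were low, *EPCAM* was at the edge of detection and *TWIST1* was not detected. None of the members passed the test between the lines. Of the 10 members, 8 passed the filter on low counts, and 0 of them were under 0.05 by the quasi-likelihood test of edgeR after adjustment by Benjamini and Hochberg, against 0.677% of all 11958 genes tested (0.502% higher and 0.176% lower in PON1-OE). At an unadjusted p under 0.05 there were 2 members, *SNAI2* and *FN1*, both higher in PON1-OE, where 11.1% of all genes passed (5.90% higher and 5.17% lower). The median log2FC of the 8 members was -0.032, with 3 positive and 5 negative, beside -0.0025 over all genes. Their 95% intervals all lay between -0.43 and 0.46, inside the 1.5-fold difference in either direction that the methods of the study ask of a changed gene. Together with an adjusted p under 0.05, 0.0502% of all genes passed that threshold. In RNA from a whole culture, fewer cells of a kind and less mRNA per cell cannot be told apart.

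**Figure D1:**
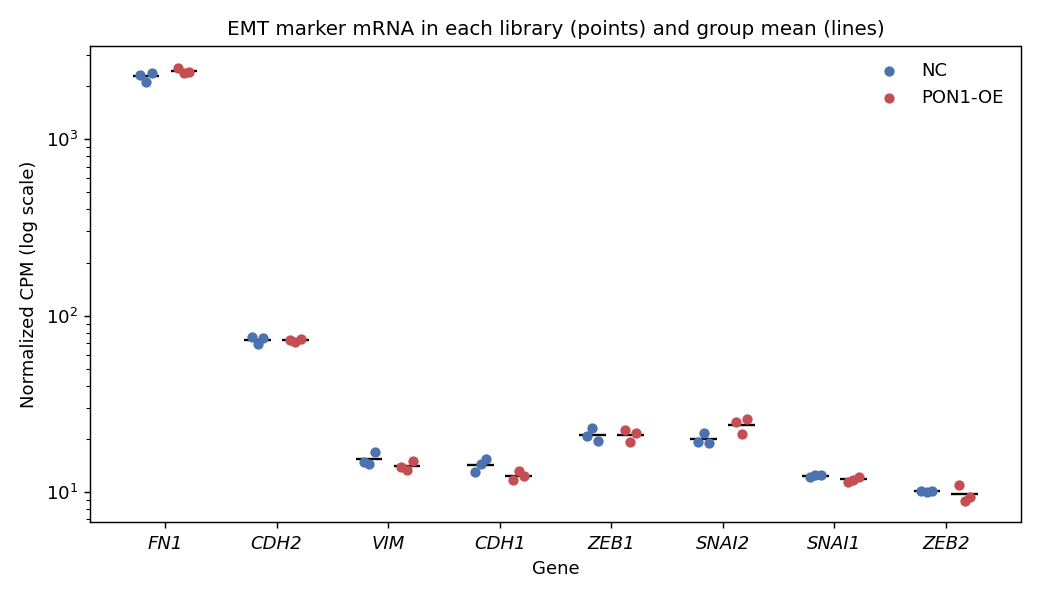
Normalized CPM (counts scaled to a common library size, on a log axis) of the 8 members that passed the filter, with a point for each of 3 NC and 3 PON1-OE libraries and a line at each group mean. *FN1* sits between 2121 and 2546 CPM, far above the others, and only for *FN1* do the points of the groups not overlap.

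Levels were compared between genes as CPM, the counts scaled to a common library size, per kilobase of merged exons, over all 6 libraries. *FN1* stood at 136 (range 122 to 147), *CDH2* at 14.7 (14.0 to 15.2), *SNAI1* at 7.17 (6.75 to 7.44), *SNAI2* at 6.48 (5.60 to 7.62), *VIM* at 2.85 (2.58 to 3.29), *ZEB1* at 2.44 (2.23 to 2.66), *CDH1* at 2.16 (1.88 to 2.51), *ZEB2* at 0.397 (0.357 to 0.437) and *EPCAM* at 0.0674 (0 to 0.199) CPM per kilobase. The ranges of *SNAI1* and *SNAI2*, of *VIM* and *ZEB1*, and of *ZEB1* and *CDH1* overlapped, so these neighbours did not differ beyond their spread. Per kilobase of the principal transcript, a scale added after the data were seen, the order of *SNAI1* and *SNAI2* turned (7.17 and 9.05 CPM per kilobase), and *SNAI1* and *VIM* (6.89) became the only neighbours that overlapped. *CDH2* stood far above *CDH1* on both scales, and *ZEB1* stood above *CDH1* beyond their ranges only per kilobase of the principal transcript.

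Of the epithelial markers, *CDH1* (ENSG00000039068, GRCh38 chr16:68737225-68835548, plus strand) was measured at 13.0, 14.4 and 15.5 CPM in NC replicates 1 to 3 and at 11.6, 13.1 and 12.3 CPM in PON1-OE replicates 1 to 3. The lowest NC library lay just below the highest PON1-OE library, and the groups otherwise lay apart, with PON1-OE on the low side. The difference did not pass the test (14.3 ± 1.27 against 12.4 ± 0.753 CPM, SD, n = 3; log2FC -0.21, SE 0.10, 95% interval -0.43 to 0.0068, adjusted p = 0.465 in edgeR, unadjusted p = 0.0569). The unadjusted p in edgeR was 0.0266 without NC replicate 1 and 0.0361 without PON1-OE replicate 2. It was 0.104 and 0.219 without NC replicates 2 and 3, and 0.172 and 0.0998 without PON1-OE replicates 1 and 3. In DESeq2, with all libraries, it was 0.117. *EPCAM* (chr2:47345158-47387601, plus strand) had 2, 4 and 3 counts in the NC libraries. In the PON1-OE libraries it had 0, 8 and 0. A floor of 3 counts corresponds to 0.166 to 0.192 CPM over the 6 libraries. *EPCAM* did not pass the filter, and no fold is given for it. Thus E-cadherin mRNA was present at a low level in every library, whereas *EPCAM* mRNA, which marks stem-like and biliary-like HCC cells, was at most 4 counts in 5 of 6 libraries.

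Among the mesenchymal markers, *FN1* (ENSG00000115414, chr2:215360440-215436172, minus strand) was at 2324, 2121 and 2359 CPM in NC and at 2546, 2378 and 2395 CPM in PON1-OE. Each PON1-OE library was above each NC library, by a narrow margin, and NC replicate 2 was the lowest of all. *FN1* was thus the 1 member whose groups did not overlap, where 16.1% of all genes did not overlap (8.32% higher and 7.74% lower). Its log2FC was 0.11 (SE 0.038, 95% interval 0.026 to 0.18), with an adjusted p of 0.275 in edgeR and an unadjusted p of 0.0116 that was 0.115 without NC replicate 2 and 0.0661 without PON1-OE replicate 1. The exact two-sided permutation test gave p = 0.1, the smallest that 3 against 3 libraries allow. *FN1* took 0.214% to 0.255% of a library and ranked 23 by level among the genes tested. Hepatocytes are the source of plasma fibronectin.

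N-cadherin mRNA was level between the lines. *CDH2* (ENSG00000170558, chr18:27950966-28177446, minus strand) was at 75.3, 69.1 and 75.1 CPM in NC and at 73.0, 70.7 and 73.9 CPM in PON1-OE, and the PON1-OE libraries all lay inside the NC range (log2FC -0.012, SE 0.053, 95% interval -0.12 to 0.099, adjusted p = 0.962 in edgeR). *VIM* (ENSG00000026025, chr10:17228259-17237593, plus strand) was at 14.7, 14.4 and 16.9 CPM in NC and at 13.9, 13.3 and 15.0 CPM in PON1-OE. The groups overlapped, and NC replicate 3 was the highest (log2FC -0.13, SE 0.10, 95% interval -0.34 to 0.082, adjusted p = 0.702 in edgeR). *VIM*, a highly expressed gene in fibroblasts and in many mesenchymal tumor lines, stood in these libraries below the median of the genes tested, 28.8 CPM. The strand used in counting is not stated, and *VIM* shares 641 and 619 exonic bases with the antisense genes *VIM-AS1* and AL133415.1, and antisense genes also share 1299 exonic bases with *ZEB2*, 366 with *ZEB1*, 347 with *CDH1*, 141 with *TWIST1* and 136 with *CDH2*, so reads of these partners cannot be told apart.

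The balance of mesenchymal to epithelial mRNA within a library does not depend on how libraries are scaled. The log2 ratio of *CDH2* to *CDH1* counts was 2.54, 2.26 and 2.28 in NC, beside 2.65, 2.43 and 2.58 in PON1-OE, so that the mean was 2.36 ± 0.157 against 2.55 ± 0.113 (SD, n = 3), a difference of 0.20. The groups overlapped, with NC replicate 1 inside the PON1-OE range. The log2 ratio of *VIM* to *CDH1* was 0.105 ± 0.0944 in NC and 0.187 ± 0.145 in PON1-OE, a difference of 0.082 that is smaller than the SD of the PON1-OE libraries. A ratio to *EPCAM* could not be formed because *EPCAM* was at 0 in 2 libraries.

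Of the transcription factors, *SNAI2* (Slug, ENSG00000019549), a zinc finger repressor of E-cadherin that also serves in cell survival, differed most. It was at 19.1, 21.6 and 19.0 CPM in NC and at 25.0, 21.3 and 25.9 CPM in PON1-OE. PON1-OE replicates 1 and 3 lay above all NC libraries, but PON1-OE replicate 2 lay just below NC replicate 2, so the groups overlapped. The means were 19.9 ± 1.44 and 24.0 ± 2.45 CPM (SD, n = 3), with a log2FC of 0.27 (SE 0.090, 95% interval 0.084 to 0.46). The adjusted p was 0.226 in edgeR, and it ranged from 0.0734, without PON1-OE replicate 2, to 0.588 over the alternatives in which it was given. The unadjusted p was 0.00678, and it remained under 0.05 in every alternative run.

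The other transcription factors showed no difference of this size. *SNAI1* (Snail, ENSG00000124216, chr20:49982999-49988886, plus strand), the paralog of *SNAI2*, was at 12.2, 12.5 and 12.5 CPM in NC and at 11.4, 11.8 and 12.2 CPM in PON1-OE (log2FC -0.075, SE 0.10, 95% interval -0.29 to 0.14). *ZEB1* (ENSG00000148516, chr10:31318495-31529814, plus strand) was at 20.7, 23.0 and 19.4 CPM in NC and at 22.5, 19.3 and 21.6 CPM in PON1-OE (log2FC 0.0075, SE 0.090, 95% interval -0.18 to 0.19). Neither pair of groups was apart, and the PON1-OE libraries of *ZEB1* spanned nearly the same range as those of NC. *ZEB2* (ENSG00000169554, chr2:144364364-144524583, minus strand) was at 10.2, 10.1 and 10.1 CPM in NC and at 10.96, 8.94 and 9.38 CPM in PON1-OE, where the PON1-OE libraries fell on both sides of a narrow NC group (log2FC -0.052, SE 0.12, 95% interval -0.29 to 0.19). The adjusted p in edgeR was 0.848 for *SNAI1*, 0.984 for *ZEB1* and 0.918 for *ZEB2*. *TWIST1* (ENSG00000122691), a basic helix-loop-helix factor, had 0 counts in all 6 libraries, which allows a level of up to 0.166 to 0.192 CPM by the floor of 3 counts per library. The ZEB mRNAs with the miR-200 matches printed above were therefore both present in every library, at similar levels in the lines.

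**Figure D2:**
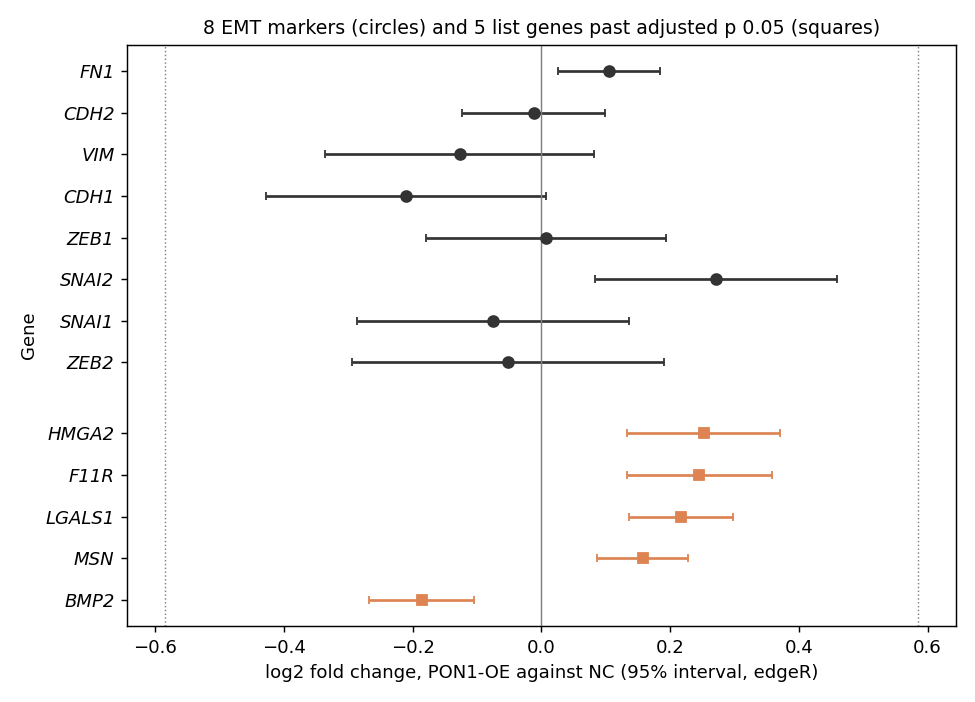
log2FC of PON1-OE against NC with 95% intervals from edgeR, for 8 EMT markers (circles) and for 5 genes of the surrounding lists with an adjusted p under 0.05 (squares), with dotted lines at a 1.5-fold difference to each side. The intervals of *SNAI2* (0.084 to 0.46) and *FN1* (0.026 to 0.18) leave out 0 without passing the adjusted test, and no interval reaches a dotted line.

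The members were then set among 188 further genes of the EMT program in 7 lists, of which 145 were tested. Of these, 6 had an adjusted p under 0.05 over all genes, 5 higher and 1 lower. Over all 11958 genes tested the share was 0.677% (0.502% higher and 0.176% lower). Most epithelial junction and polarity genes were measured in HCCLM3. Of 36, 33 passed the filter, beside 11958 of 20381 genes in all, led per kilobase by the tight junction gene *CLDN4* (132 CPM per kilobase) and the p120-catenin gene *CTNND1* (86.3 CPM per kilobase). In this list *F11R*, which encodes the junctional adhesion molecule JAM-A, rose in PON1-OE. *F11R* was at 84.4, 95.03 and 84.5 CPM in NC and at 100, 109 and 103 CPM in PON1-OE, with no overlap (log2FC 0.25, SE 0.054, adjusted p = 0.0380 in edgeR). The adjusted p of *F11R* was 0.229 without NC replicate 1, 0.275 without NC replicate 3, 0.0994 without replicate 2 of PON1-OE and 0.139 without its replicate 3. The median log2FC of the list was -0.014. At an unadjusted p under 0.05 the list had 5 genes higher and 2 lower, 21.2% of those tested against 11.1% of all genes. These included *PKP3*, a desmosomal plakophilin (log2FC 0.14, SE 0.049), *PPL*, which encodes periplakin (-0.28, SE 0.11), and the polarity gene *PALS1* (-0.23, SE 0.10), none of them past the adjusted test. Without NC replicate 1 or without PON1-OE replicate 3 the list had 3 such genes.

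The epithelial regulators were partly undetected. Of 20 genes, 10 passed the filter and the other 10 had at most 3 counts in every library, and 5 had 0 in all 6, among them *GRHL2*, *OVOL1*, *OVOL2* and *MAL2*, named after their values were seen. *GRHL2*, *OVOL1* and *OVOL2* encode transcription factors that restrain EMT. *ELF3* (99.1 CPM per kilobase) and *KLF4* (66.7 CPM per kilobase), which encode epithelial transcription factors, were the most abundant of this list. At an unadjusted p under 0.05, 2 of the 10 genes tested were lower and 0 higher, with a list median log2FC of -0.059. They were *ELF3* (log2FC -0.094, SE 0.040) and the mucin gene *MUC1*, for which 13.4, 9.84 and 10.8 CPM in NC stood beside 6.21, 10.8 and 6.89 CPM in PON1-OE (log2FC -0.51, SE 0.17, adjusted p = 0.217 in edgeR). The groups of *MUC1* overlapped, since PON1-OE replicate 2 lay above NC replicate 2. The list had 0 such genes without NC replicate 1 and 1 without PON1-OE replicate 1 or 3.

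Of the 7 lists, the mesenchymal effector genes had the median farthest from 0, on the higher side in PON1-OE. Of 38 genes, 22 were tested, and 18 of these had a positive and 4 a negative log2FC, with a median of 0.13 where the median of all genes was -0.0025. At an unadjusted p under 0.05, 11 were higher and 1 lower, 54.5% of those tested against 11.1% of all genes. The lists were chosen with earlier results of these data known, and what this choice adds to the share was not tested. The groups of 9 genes did not overlap, all of them higher, where 8.32% of all genes were higher without overlap. Of these 9 genes, 3 rose past an adjusted p under 0.05, *LGALS1* and *MSN* among them. Another part of the list was near or below detection, with 14 genes at 8 counts or fewer in every library and 7 of them at 0 in all. The summed level of the list was 7299 to 7466 CPM in NC, and it was 7866 to 8101 in PON1-OE. Abundant genes weigh most in this sum, so it does not describe the list gene by gene. Among them, *MSN* had means of 1620 CPM in NC and 1807 in PON1-OE. *S100A4*, with overlapping groups, had means of 1357 and 1283 CPM.

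*LGALS1*, the gene of the lectin galectin-1, was at 177, 187 and 179 CPM in NC and at 211, 210 and 210 CPM in PON1-OE (log2FC 0.22, SE 0.039, adjusted p = 0.0109 in edgeR). The PON1-OE libraries of *LGALS1* were almost identical, and its adjusted p was 0.0843 without NC replicate 1, 0.1003 without NC replicate 3 and 0.0672 without PON1-OE replicate 3. *MSN* encodes moesin, which links actin to the plasma membrane, and it was at 1615, 1684 and 1561 CPM in NC and at 1776, 1781 and 1865 CPM in PON1-OE (log2FC 0.16, SE 0.034, adjusted p = 0.0325 in edgeR). Its adjusted p was 0.164 without NC replicate 1, 0.260 without NC replicate 3 and 0.253 without PON1-OE replicate 3. In both genes each PON1-OE library was above each NC library, and the changes were small in fold. *CALD1*, which encodes the actin-binding protein caldesmon, was the 1 gene lower at that unadjusted threshold (log2FC -0.16, SE 0.070, unadjusted p = 0.0299 in edgeR), and *S100A4*, the most abundant of the list per kilobase, was at 1288 CPM per kilobase. Fibroblast markers, all 10 of which are also on this list, summed to 15.98 to 20.95 CPM in NC. In PON1-OE they summed to 16.7 to 20.2 CPM. The 2 of 10 that were tested, both among *PDGFRB*, *DCN* and *LUM*, made up most of this sum. Their log2FC values were -0.073 and 0.25, neither at an unadjusted p under 0.05 in edgeR. The other 8 had at most 8 counts in every library. Of these, *COL1A1*, *COL1A2* and *COL3A1* were at 4 counts or fewer and *PDGFRA*, *THY1*, *FAP* and *POSTN* at 0. The summed endothelial markers were at 108 to 117 CPM in NC, beside 120 to 129 in PON1-OE, mostly from *ESAM*. The summed leukocyte markers were at 211 to 231 CPM in NC, beside 230 to 253 in PON1-OE, nearly all from the lysosomal gene *CD68*. The part of these genes in the result was not tested.

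**Figure D3:**
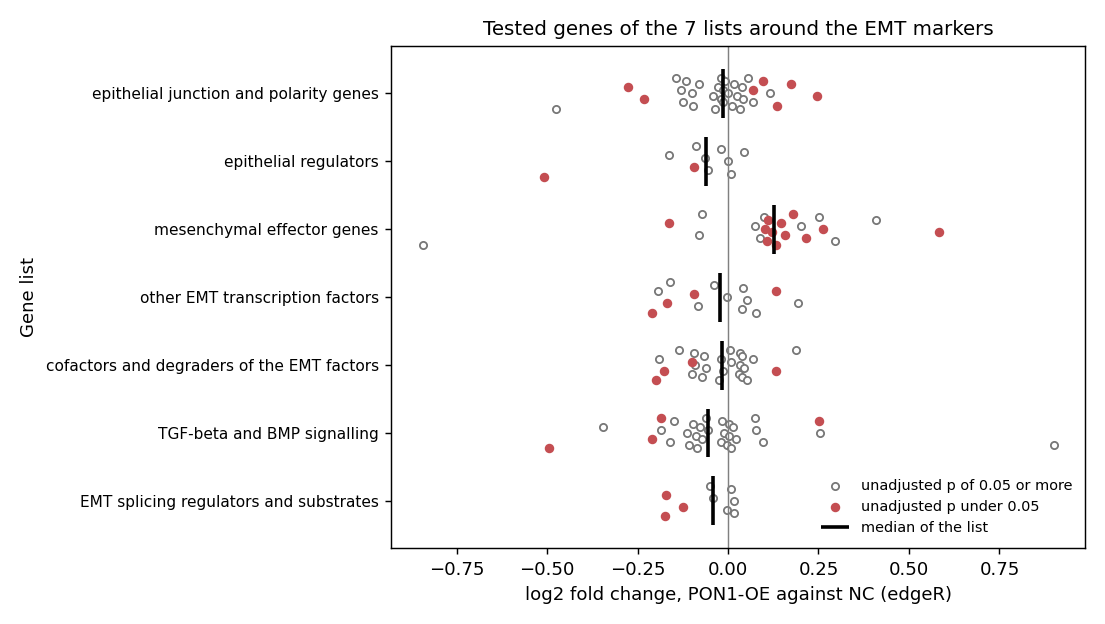
log2FC of the tested genes in the 7 lists, 1 point per gene, filled at an unadjusted p under 0.05 in edgeR, with a bar at the median of each list. The mesenchymal effector genes have their median at 0.13 with 18 of 22 points to the right of 0, and the other medians lie between -0.059 and -0.014. The lists were chosen with earlier results of these data known.

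The other EMT transcription factors did not move together. Of 22 genes, 14 were tested and the other 8 had at most 3 counts in every library. Of those tested, 1 was higher and 3 were lower at an unadjusted p under 0.05 (28.6%, against 11.1% of all genes). The median log2FC of those tested was -0.021. *ETS1*, a factor of invasive cells, was at 236 ± 6.54 CPM in NC, beside 259 ± 16.8 in PON1-OE (SD, n = 3; log2FC 0.13, SE 0.044, adjusted p = 0.226 in edgeR). *ID1* (log2FC -0.17, SE 0.076) and *ID2* (-0.21, SE 0.098), inhibitors of helix-loop-helix factors and targets of BMP signalling, were on the low side with overlapping groups, and *YBX1* was the most abundant of the list at 254 CPM per kilobase. The list had 2 such genes without NC replicate 1 or 3 and 1 without PON1-OE replicate 2. All 26 cofactors and degraders of the EMT factors were tested, with a median log2FC of -0.017. At an unadjusted p under 0.05, 1 was higher and 3 were lower (15.4%, beside 11.1% of all genes). *PAK1*, a kinase that phosphorylates Snail, was at 111 ± 2.49 CPM in NC, beside 121 ± 3.95 in PON1-OE, and the ubiquitin ligase gene *FBXO45* was at 36.2 ± 1.34 and 32.0 ± 1.54 CPM (SD, n = 3), both without overlap and neither past the adjusted test. *AJUBA*, a LIM protein that acts with Snail, had a log2FC of -0.10 (SE 0.042), and the corepressor gene *HDAC1* stood at 50.8 CPM per kilobase.

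In TGF-beta and BMP signalling, the growth factor input of EMT, 31 of 36 genes were tested, and the changes were few and went both ways. *BMP2* fell from 264 ± 10.7 to 232 ± 4.35 CPM (SD, n = 3; log2FC -0.19, SE 0.039, adjusted p = 0.0294 in edgeR), with 256, 276 and 261 CPM in NC above 228, 236 and 233 CPM in PON1-OE. *HMGA2*, a chromatin protein induced by TGF-beta, rose from 74.8, 85.8 and 75.6 CPM in NC to 96.7, 88.9 and 95.9 CPM in PON1-OE (log2FC 0.25, SE 0.057, adjusted p = 0.0433 in edgeR). Neither gene overlapped between groups, and both lost the call when libraries were left out. The adjusted p of *BMP2* was 0.0625, 0.109 and 0.138 without NC replicates 1, 2 and 3 and 0.131 and 0.134 without PON1-OE replicates 1 and 3, and that of *HMGA2* was 0.268 and 0.309 without NC replicates 1 and 3 and 0.145 and 0.217 without PON1-OE replicates 1 and 3. The ligand gene *TGFB2* was at 66.6, 66.6 and 64.7 CPM in NC and at 55.2, 55.0 and 61.0 CPM in PON1-OE, lower in each library without passing the adjusted test (log2FC -0.21, SE 0.057, adjusted p = 0.119 in edgeR). The list had 1 gene higher and 3 lower at an unadjusted p under 0.05 (12.9%, beside 11.1% of all genes). Its median log2FC was -0.056. *GDF15* (247 CPM per kilobase) and *SMURF1* (76.3 CPM per kilobase) were its most abundant genes.

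**Figure D4:**
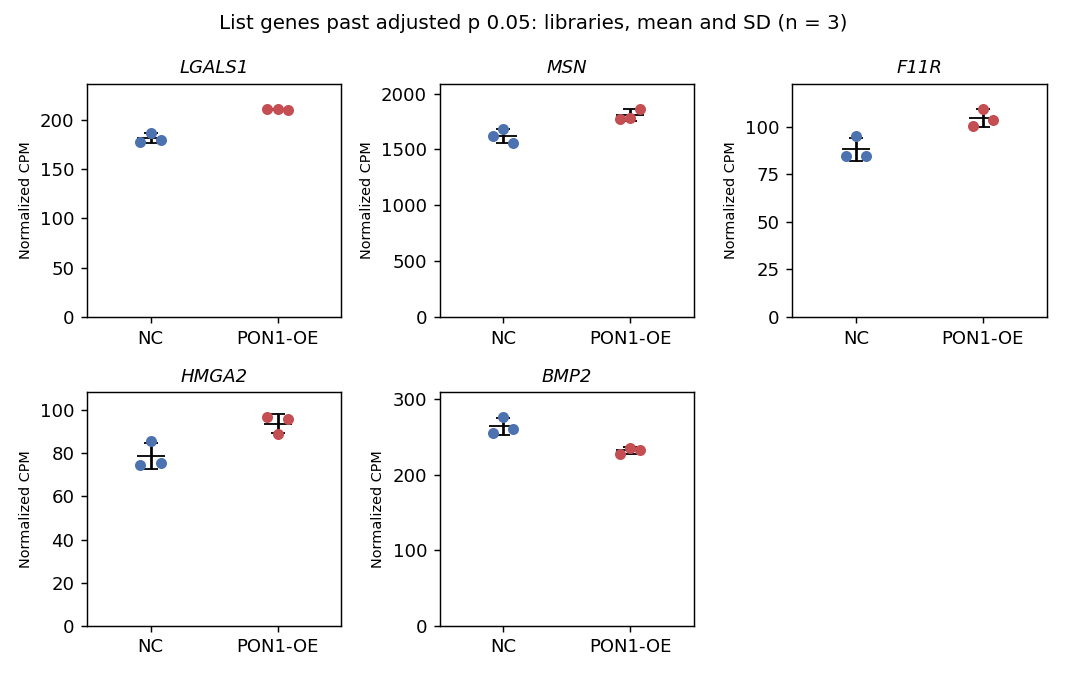
Normalized CPM of 5 list genes with an adjusted p under 0.05, each axis starting at 0, with a point for each library and the mean and SD of 3 NC and 3 PON1-OE libraries. The groups do not overlap in any panel, and the differences are small beside the levels, from 264 to 232 CPM in *BMP2* and from 1620 to 1807 CPM in *MSN*.

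The epithelial splicing regulator gene *ESRP1*, counted with the epithelial regulators, had at most 3 counts in every library. The value of *ESRP2*, on the same list, is not reported here. Of 10 EMT splicing regulators and substrates, 9 were tested. With 0 higher and 3 lower, 33.3% of those tested were at an unadjusted p under 0.05, against 11.1% of all genes. The median log2FC of the list was -0.041. *NUMB*, which encodes a cell fate determinant spliced differently in epithelial and mesenchymal cells, was at 69.5, 71.5 and 69.0 CPM in NC and at 62.9, 60.8 and 62.7 CPM in PON1-OE, without overlap (log2FC -0.17, SE 0.052, adjusted p = 0.175 in edgeR). The splicing factor gene *MBNL1* had a log2FC of -0.17 (SE 0.065) with overlapping groups, and *SRSF1* and *HNRNPA1* were the most abundant, at 99.1 and 217 CPM per kilobase. The list had 1 such gene without NC replicate 2 or without PON1-OE replicate 2. Counts per gene do not show which isoform was made, so the splicing switch itself was not measured.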

How the data were processed

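RNA-seq was run on 3 NC and 3 PON1-OE libraries. The deposited table of the authors holds unnormalized estimated counts of 20381 genes, each with its Ensembl identifier. The submitters' processing notes name Bowtie2 2.2.8, HISAT2, StringTie 1.3.1 and DESeq2 without a role, and the genome build and annotation are not given in the sources used here. Of the values, 10.5% were not whole numbers, and they were rounded, the one step added to a design set for whole counts. All values of the 10 members were whole. Columns were assigned to libraries by name.

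In R 4.3.3, low genes were removed with filterByExpr, which left 11958, TMM factors scaled the libraries, and PON1-OE was tested against NC with edgeR 4.0.16 (glmQLFit, glmQLFTest, no covariates), with Benjamini-Hochberg adjustment over all genes tested. The common dispersion was 0.00192. CPM used TMM-scaled library sizes. With 3 libraries a group, exact two-sided permutation tests cannot go below p = 0.1. The floor of 3 counts covers counting error only. Libraries of a group differed by more than sampling noise (chi-square per degree of freedom 2.11 to 4.11, genes summing to 20 counts or more). Positions, merged exons and 3′ untranslated regions came from GENCODE v29 on GRCh38, which held 20126 of the identifiers.

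The members and the gene lists were chosen with earlier results of these data known. Genes named are the members, list genes with an adjusted p under 0.05, the 2 with the lowest unadjusted p under 0.05 in each direction, and the 2 with the highest CPM per kilobase, as levels. Exceptions are named in the text, and some genes that the rule covers are not reported here. Results were recomputed, where the alternative applied to them, with unrounded counts, with RLE size factors, without a filter, with a minimum of 10 counts per library, with replicate numbers as a block, with each library omitted, and with DESeq2 1.42.0, limma-voom (limma 3.58.1), a |log2FC| over 1 or the length of the principal transcript.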

Additional observations from a re-analysis of the deposited data

How the results depend on the processing

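Most values kept their direction and their side of the threshold. With each library left out in turn, the log2FC ranged from -0.052 to 0.0096 for *CDH2* (0.0071 without NC replicate 3, 0.0070 without PON1-OE replicate 2), from -0.047 to 0.078 for *ZEB1* (-0.0037 without NC replicate 1, -0.037 without PON1-OE replicate 1, -0.0082 without PON1-OE replicate 3) and from -0.14 to 0.0090 for *ZEB2*. The signs of these 3 genes turned, and the cause was not tested. Members at an unadjusted p under 0.05 numbered 1 to 3, 1 of them without NC replicate 2 or PON1-OE replicate 1. Genes called over all genes, 81, were 177 with no filter and 11 to 103 with a library left out (11 without NC replicate 3). At the thresholds of the study, 6, they were 23 with no filter, 1 in DESeq2, 3 at |log2FC| over 1 and 4 to 10 with a library left out. DESeq2 gave no adjusted p for *PON1* (log2FC 6.76), *CDH1*, *VIM*, *SNAI1*, *SNAI2*, *ZEB1* and *ZEB2*. Genes left without an adjusted p could not enter its counts. The 6 list genes at an adjusted p under 0.05 were 0 to 7 with a library left out, 0 without NC replicate 3 or PON1-OE replicate 3 and 1 without NC replicate 1. At an unadjusted p under 0.05 the lists ranged over these omissions from 3 to 7 (junction genes), 0 to 2 (epithelial regulators), 1 to 4 (other transcription factors, with 2 in DESeq2) and 1 to 3 (splicing genes). Replicate numbers did not pair the libraries (correlations of same-numbered deviations 0.018, -0.023 and 0.020), and no library correlated best with its own number. With the replicate number as a block, 40 genes were called over all genes, 3 of them on the lists, while *MSN*, *BMP2* and *HMGA2* lost the call (adjusted p = 0.114, 0.0601 and 0.0966 in edgeR), and 1 epithelial regulator was at an unadjusted p under 0.05. In limma-voom the adjusted p of *HMGA2* was 0.0513. A level of about 12 CPM gave an SE of 0.10 on the log2 scale, which limits what could be seen for *CDH1*, *VIM* and *SNAI1*.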
